A study of Mus musculus with 12 samples.

Results

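The genes described here encode potassium channels and their auxiliary subunits, together with a few transcripts named after them. They were taken as every probe set that carried a single symbol starting with Kcn in the platform annotation, and a symbol with several probe sets was represented by the one with the highest mean over the 12 arrays. This gave 92 genes out of 19938 named genes, from 95 probe sets. Of the 92 genes, 72 passed the filter on low values and were tested and 20 lay below it.

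The material was mouse neuronal cultures made from D3 embryonic stem cells through embryoid bodies and harvested on day 16. All groups share this D3 background. The D3 group was unmodified and received no treatment, siSCR carried a scrambled sequence, and siPRMT1 and siPRMT8 carried a knockdown of the arginine methyltransferase genes Prmt1 and Prmt8. Each group had 3 biological replicates on 1-colour whole-transcript arrays, and the labels describe 1 line per group, so the history of a line and its knockdown cannot be told apart. The labels do not say whether replicates were separate differentiations, so p-values measure only the spread between these samples. RNA came from whole cultures, so fewer cells of a type and less RNA per cell cannot be told apart.

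Potassium channels set the resting potential of neurons, repolarise the action potential and limit repetitive firing. Voltage-gated Kcna to Kcnd, Kcnh and Kcnq channels open on depolarisation. The Kcnma1 (BK) and Kcnn channels respond to calcium, and Kcnt channels respond to sodium. Kcnj channels pass inward current more easily than outward current, and Kcnk channels give the background leak. PRMT1 and PRMT8 transfer methyl groups to arginine residues of proteins, PRMT1 in most cells and PRMT8 mainly in neurons.

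The 250 bases upstream of the annotated start are shown for 5 genes on which the results below turn. Kcnd2 and Kcnd3 are A-type pore genes that fell in both knockdowns. Kcnh7 and Kcnma1 also fell in both, under every processing alternative that tested them. The alternative that left each of them untested is named with the gene below. Kcnj3 rose in siPRMT8. The sequences are those of RefSeq on GRCm38.p6, written 5′ to 3′ on the strand of the gene. Capitals mark matches on either strand to 3 motifs: GGGCGG is the core of a GC box, TATAAA is the TATA box and CAGCTG is a form of the E-box.
Kcnd2 (Kv4.2), chr6:21215096-21215345, plus strand: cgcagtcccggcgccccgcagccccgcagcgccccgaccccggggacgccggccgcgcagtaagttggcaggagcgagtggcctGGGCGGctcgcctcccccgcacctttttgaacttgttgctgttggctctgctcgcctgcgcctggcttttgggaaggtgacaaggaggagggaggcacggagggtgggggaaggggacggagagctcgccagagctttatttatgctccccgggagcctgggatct
Kcnd3 (Kv4.3), chr3:105451640-105451889, plus strand: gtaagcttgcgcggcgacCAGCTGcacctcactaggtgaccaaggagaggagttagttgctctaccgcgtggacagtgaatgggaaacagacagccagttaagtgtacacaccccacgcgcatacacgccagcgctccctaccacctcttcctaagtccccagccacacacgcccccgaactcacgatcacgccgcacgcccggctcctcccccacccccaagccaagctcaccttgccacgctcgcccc
Kcnh7 (Erg3), chr2:63184288-63184537, minus strand: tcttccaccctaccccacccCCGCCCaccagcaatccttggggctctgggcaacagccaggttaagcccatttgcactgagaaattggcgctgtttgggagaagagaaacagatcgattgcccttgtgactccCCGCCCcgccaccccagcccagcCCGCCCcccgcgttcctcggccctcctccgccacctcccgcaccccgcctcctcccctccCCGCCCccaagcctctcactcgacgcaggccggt
Kcnma1 (BK alpha), chr14:24004206-24004455, minus strand: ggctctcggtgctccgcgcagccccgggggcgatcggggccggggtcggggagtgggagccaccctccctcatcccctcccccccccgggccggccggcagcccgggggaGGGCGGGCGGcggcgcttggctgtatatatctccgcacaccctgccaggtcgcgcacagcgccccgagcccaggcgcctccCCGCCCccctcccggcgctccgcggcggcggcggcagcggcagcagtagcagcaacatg
Kcnj3 (Girk1), chr2:55435720-55435969, plus strand: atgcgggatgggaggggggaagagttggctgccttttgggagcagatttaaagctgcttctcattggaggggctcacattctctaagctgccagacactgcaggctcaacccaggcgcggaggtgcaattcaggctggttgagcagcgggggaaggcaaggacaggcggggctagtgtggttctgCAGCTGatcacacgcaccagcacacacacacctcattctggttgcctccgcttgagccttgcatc

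By symbol, 70 of the 92 genes had an entry in the RefSeq promoter table, with 95 promoters. GGGCGG was found in 42 of these 95 promoters (44.2%) and in 32.7% of all 32851 promoters of the table. CAGCTG was found in 22 (23.2%, against 13% of all promoters), and TATAAA in 3 (3.16%, against 12.4%). The 23 promoters of the 16 matched genes that fell in either knockdown held GGGCGG in 11 (47.8%), CAGCTG in 5 (21.7%) and TATAAA in 0. The Kcnh7 window held 4 GGGCGG matches, all on the opposite strand, and the Kcnma1 window held 2 stretches of it, one of them made of overlapping matches. Kcnj3 had 7 CpG dinucleotides in its window, Kcnd2 22, Kcnd3 18, Kcnh7 16 and Kcnma1 31. The median was 6 over all promoters of the table and 7 over those of the channel genes. Over the promoters of genes that fell in either knockdown it was 15. These matches describe the letters of the windows only.

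The targeted genes were read first. Prmt1 lay between 7.59 and 7.95 (log2 value) in the siPRMT1 arrays and between 8.69 and 8.87 in the 6 control arrays, and in siPRMT8 it lay above the controls, at 9.20 to 9.27. Prmt8 lay between 6.17 and 6.44 in siPRMT8 and between 7.37 and 7.41 in D3. The siSCR arrays gave Prmt8 values of 6.60, 7.18 and 7.10, and the siPRMT1 arrays 6.35, 6.89 and 6.67, so Prmt8 was also below D3 outside its own knockdown. Replicate 1 of siSCR stood apart: on the first principal component of the 14953 tested genes (61.4% of the variance) it lay at 0.105, between the other 5 control arrays (-26.2 to -21.6) and the 6 knockdown arrays (13.6 to 25.7). Leaving it out raised the number of potassium channel genes called in siPRMT1 from 18 to 24 and in siPRMT8 from 24 to 26, while the share of all genes called rose from 18.7% to 25.2% and from 23.8% to 27.5%.

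Many neuronal and astrocyte markers fell in the knockdowns, as did part of the channel genes. The mean log2 value over 10 neuronal markers was 9.64 to 9.76 in D3, 9.66 and 9.74 in siSCR replicates 3 and 2, 8.62 in siSCR replicate 1, 8.31 to 8.48 in siPRMT1 and 8.43 to 8.65 in siPRMT8. Of these 10, 8 fell in siPRMT1 and 6 in siPRMT8 against siSCR, where 11.6% and 13.2% of all genes fell. All 10 fell in both against D3, where 14.7% and 15.2% of all genes fell. Snap25, a synaptic fusion protein, read 10.20, 10.35 and 10.19 in D3, 8.85, 10.47 and 10.34 in siSCR, 8.63, 8.70 and 8.74 in siPRMT1 and 8.65, 8.84 and 8.75 in siPRMT8. The 6 tested astrocyte markers all fell in both knockdowns, with array means over all 8 listed astrocyte markers of 7.27 to 7.66 in siSCR, 6.62 to 6.85 in siPRMT1 and 6.60 to 6.90 in siPRMT8. Of 4 tested glutamatergic markers 3 fell in each knockdown, and of 5 GABAergic markers 2 fell in siPRMT1 and 3 in siPRMT8. Array means over all 6 listed glutamatergic markers, tested or not, were 6.46 to 7.13 in siSCR, 5.77 to 5.92 in siPRMT1 and 5.88 to 6.15 in siPRMT8, and those of the GABAergic list 6.45 to 6.75, 6.28 to 6.37 and 6.28 to 6.43. Each of 7 further lists had at most 3 genes called against siSCR in a knockdown. These were neural progenitor, oligodendrocyte lineage, mural, endothelial, muscle, epithelium and endoderm, and myeloid markers. Their directions were mixed. Of 6 neural progenitor markers 1 fell in siPRMT1 and 2 rose in siPRMT8. Of 7 tested oligodendrocyte lineage markers 1 rose and 2 fell in siPRMT1, and 2 fell in siPRMT8. The part that these markers have in the channel gene results was not tested. Markers of pluripotent cells were also measured in every group, with array means over 6 genes of 10.11 to 10.24 in D3, 10.36 to 10.65 in siSCR, 9.65 to 10.76 in siPRMT1 and 10.04 to 10.35 in siPRMT8, and none of the 6 passed the test in either knockdown against siSCR.

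Against the scrambled control, potassium channel genes fell far more often than they rose. In siPRMT1, 17 of the 72 tested genes fell (23.6%, against 11.6% of all 14953 genes) and 1 rose (1.39%, against 7.18%), where a call is a Benjamini-Hochberg adjusted p under 0.05 over all genes in limma. Together 25% of the channel genes and 18.7% of all genes were called. In siPRMT8, 22 fell (30.6%, against 13.2%) and 2 rose (2.78%, against 10.7%), and 33.3% of the channel genes and 23.8% of all genes were called. Most of the tested channel genes were not called, and the median log2 change over all 72 was -0.03 in siPRMT1 and -0.11 in siPRMT8, beside 0.04 and 0.01 over all genes. The 2 comparisons share the siSCR arrays. In them 15 genes fell in both and Kcng3 rose in both, while 2 genes passed only in siPRMT1 and 8 only in siPRMT8. The overlap of calls over all genes is not given here, so these counts are not read as particular to channel genes. The heat map of all tested channel genes shows the changes array by array.

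**Figure D1:**
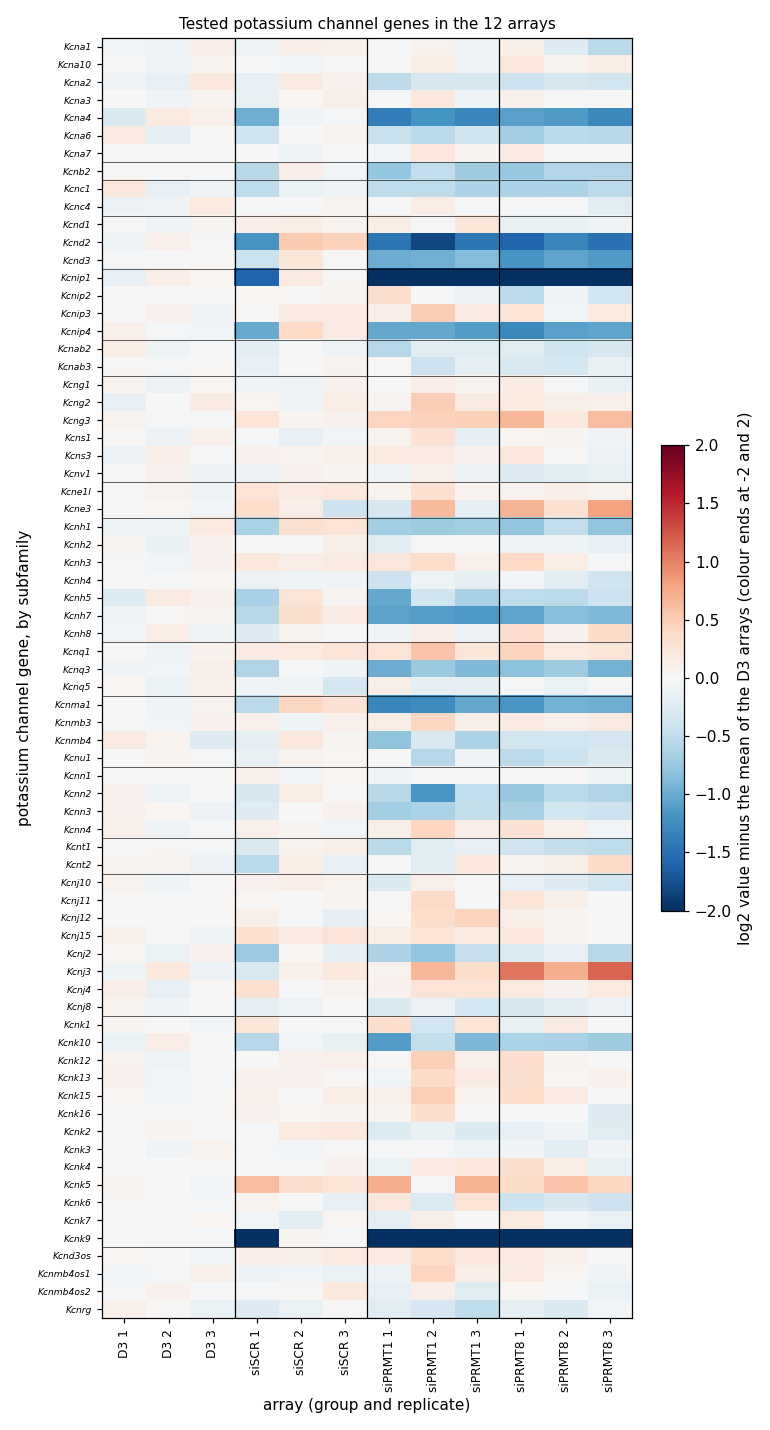
Log2 value of each of the 72 tested potassium channel genes in each of the 12 arrays, minus the mean of the 3 D3 arrays, with genes in rows by subfamily and arrays in columns by group; the colour scale ends at -2 and 2. Kcnip1 and Kcnk9 are darkest in the 6 knockdown arrays, Kcnj3 is highest in siPRMT8, and siSCR replicate 1 is lower than the other siSCR replicates for many of the same rows.

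Where the 3 arrays of a knockdown and the 3 siSCR arrays did not overlap, 17 channel genes lay lower and 3 higher in siPRMT1, beside 14.8% and 15.2% of all genes, and 30 lay lower and 3 higher in siPRMT8, beside 21.2% and 20.6% of all genes. Of the 24 channel genes that fell in either knockdown, siSCR replicate 1 was the lowest siSCR array for 20 and lay within the range of the knockdown arrays for 9. Called or not, siSCR replicate 1 was the lowest siSCR array for 40 of the 72 tested channel genes and for 31.8% of all tested genes. The 24 genes were chosen by their fall against siSCR, so their count is not like these shares. The share of channel genes called did not stay above that of all genes with every array left out. Without siSCR replicate 2 the siPRMT1 count dropped to 7 (9.72%, beside 8.81% of all genes), and without siSCR replicate 3 it was again 7 (9.72%, beside 8.81%). In siPRMT8 the count dropped to 7 without siSCR replicate 2 (9.72%, beside 13.3% of all genes) and to 5 without siSCR replicate 3 (6.94%, beside 12.4%), at which the share of channel genes lay below that of all genes; this difference was not tested. Without siPRMT8 replicate 1 the siPRMT8 count was 11 (15.3%, beside 15% of all genes), and without siPRMT8 replicate 3 it was 7 (9.72%, beside 12.1%). Without siPRMT1 replicate 3 the siPRMT1 count was 12 (16.7%, beside 11.8%). Falls alone made up 9.72% of channel genes in siPRMT1 without siSCR replicate 2 or 3, beside 6.19% and 6.45% of all genes, and 6.94% and 5.56% in siPRMT8, beside 7.16% and 7.42%. With only the arrays of the 2 groups in the fit, 3 of the 18 siPRMT1 calls passed (Kcnd3, Kcnh7 and Kcnma1; 4.17%, beside 2.39% of all genes) and 17 genes passed in siPRMT8 (23.6%, beside 19.6%). Calls that ended with 1 array left out are named with the genes below.

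Among the tested voltage-gated pore genes Kcnd2 showed the largest fall in each knockdown. Kcnd2 (Kv4.2) and Kcnd3 (Kv4.3) are pore subunits of the rapidly inactivating A-type current of neuronal dendrites and cell bodies. Kcnd2 read 7.92, 8.10 and 7.98 in D3, 6.81, 8.53 and 8.45 in siSCR, 6.54, 6.19 and 6.55 in siPRMT1 and 6.41, 6.70 and 6.51 in siPRMT8. All 6 knockdown arrays lay below every control array, siSCR replicate 1 being the nearest. The log2 change against siSCR was -1.51 (SE 0.344, 2.84-fold lower, adjusted p = 0.012) in siPRMT1 and -1.39 (SE 0.344, 2.62-fold lower, adjusted p = 0.0142) in siPRMT8. Without siSCR replicate 2 or 3 the adjusted p for Kcnd2 was 0.0554 and 0.0584 in siPRMT1 and 0.06 and 0.065 in siPRMT8, and without siPRMT8 replicate 3 it was 0.0515. Kcnd3 read 7.56, 7.60 and 7.62 in D3, 7.16, 7.84 and 7.62 in siSCR, 6.61, 6.63 and 6.72 in siPRMT1 and 6.41, 6.54 and 6.46 in siPRMT8. Its groups were also apart, and the Kcnd3 changes of -0.89 (SE 0.130, 1.85-fold lower, adjusted p = 0.00164) and -1.07 (SE 0.130, 2.1-fold lower, adjusted p = 0.000699) passed under all 17 alternatives. Kcnd1 (Kv4.1), the third pore gene of this group, read 6.81, 6.84 and 6.75 in siSCR, 6.84, 6.67 and 6.93 in siPRMT1 and 6.53, 6.54 and 6.61 in siPRMT8. It passed in siPRMT8 only, at -0.24 (SE 0.071, adjusted p = 0.0317), lost that call whichever single array was left out (adjusted p = 0.054 to 0.101), and did not pass against D3 (-0.12, adjusted p = 0.223).

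The Kcnip genes encode KChIPs, calcium-binding proteins that bind Kv4 pores and bring them to the cell surface, and 2 of 4 fell in siPRMT1 and 3 of 4 in siPRMT8. Kcnip1 showed the largest fall of any tested potassium channel gene in both knockdowns. It read 8.03, 8.33 and 8.24 in D3, 6.60, 8.39 and 8.22 in siSCR, 5.87, 5.40 and 5.86 in siPRMT1 and 5.43, 6.08 and 5.98 in siPRMT8, so that no knockdown array reached a control array. The changes were -2.02 (SE 0.373, 4.07-fold lower, adjusted p = 0.00453) and -1.91 (SE 0.373, 3.75-fold lower, adjusted p = 0.00487), and Kcnip1 kept both calls whichever array was left out. Kcnip4 read 6.89, 6.75 and 6.73 in D3, 5.78, 7.18 and 6.95 in siSCR, 5.77, 5.76 and 5.68 in siPRMT1 and 5.50, 5.71 and 5.74 in siPRMT8. Here siSCR replicate 1 lay just above the knockdown arrays. The changes of Kcnip4 were -0.90 (SE 0.265, adjusted p = 0.0353) and -0.99 (SE 0.265, adjusted p = 0.0201), and -1.33 and -1.42 without siSCR replicate 1. Leaving out any one array other than siSCR replicate 1 ended the siPRMT1 call (adjusted p = 0.0518 to 0.141), and leaving out siSCR replicate 2 or 3 or siPRMT8 replicate 1 or 3 ended the siPRMT8 call (adjusted p = 0.055 to 0.0854). Kcnip2 read 6.03, 6.03 and 6.05 in siSCR, 6.31, 5.97 and 5.88 in siPRMT1 and 5.47, 5.93 and 5.61 in siPRMT8. Its call in siPRMT8 (-0.37, SE 0.121, adjusted p = 0.0475) ended without any one of siSCR replicates 1 to 3 or siPRMT8 replicates 1 and 3 (adjusted p = 0.0745 to 0.174), it did not pass against D3 (-0.33, adjusted p = 0.0659), and it did not pass in siPRMT1 (0.02). Kcnip3, which also acts as the transcriptional repressor DREAM, changed by 0.14 and 0.02 and was not called.

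**Figure D2:**
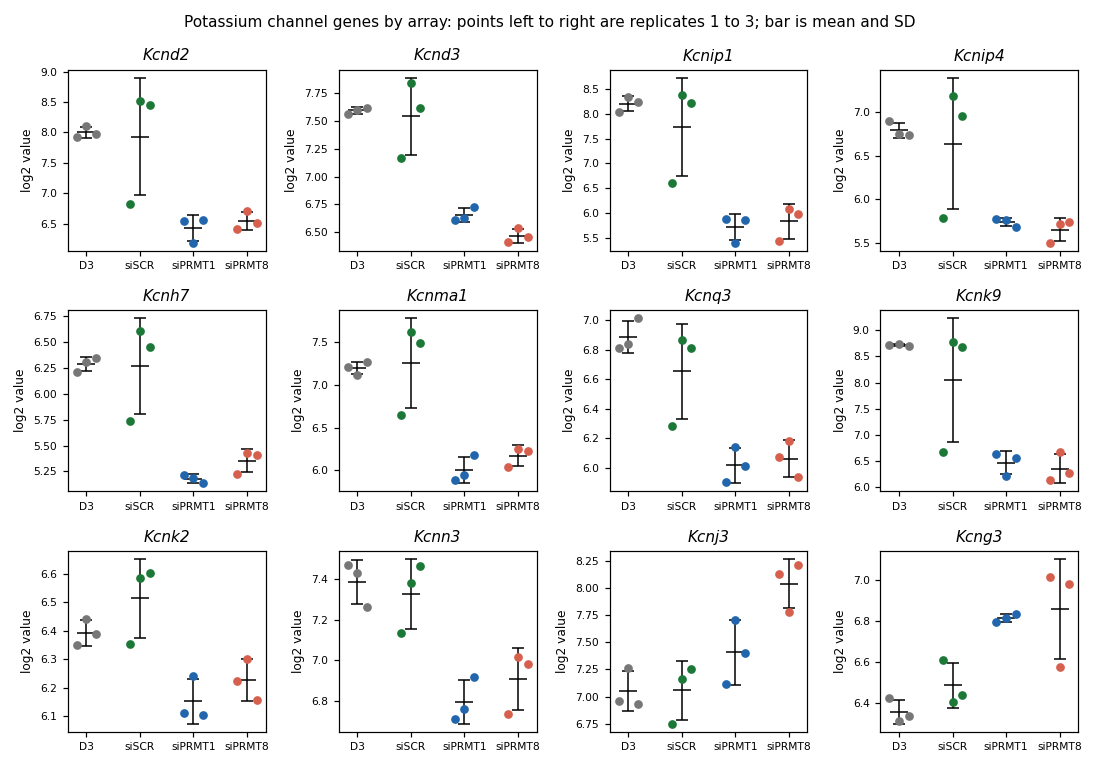
Log2 value of 12 potassium channel genes in each array, 1 panel per gene; points from left to right are replicates 1 to 3 of D3, siSCR, siPRMT1 and siPRMT8, and bars give the group mean and SD. In Kcnd2, Kcnip1 and Kcnk9 the siSCR replicate 1 point lies near the knockdown arrays and the other control points lie well above them, and Kcnj3 is highest in the 3 siPRMT8 arrays.

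Among the Kcna genes (Kv1), which give delayed rectifier currents in axons and terminals, 2 of 7 tested fell in siPRMT1 and 3 in siPRMT8. Kcna4 (Kv1.4), the A-type member, read 5.99, 6.47 and 6.38 in D3, 5.30, 6.21 and 6.24 in siSCR, 4.90, 5.09 and 4.98 in siPRMT1 and 5.19, 5.16 and 4.99 in siPRMT8. Every knockdown array was below every control array, and the changes were -0.93 (SE 0.211, adjusted p = 0.0119) and -0.81 (SE 0.211, adjusted p = 0.0182). All knockdown arrays of Kcna4 lay below the filter value of 5.43, which the gene passed through its higher control arrays. Whether these knockdown values stand above background is not known. Kcna2 (Kv1.2) read 7.16, 7.07 and 7.46 in D3, 7.07, 7.40 and 7.31 in siSCR, 6.71, 6.92 and 6.91 in siPRMT1 and 6.82, 6.91 and 6.87 in siPRMT8. Its falls were smaller, -0.42 and -0.40 (SE 0.111, adjusted p = 0.0233 and 0.0237), and its second probe set changed by -0.09 and -0.10, so that the mean of both did not pass. Kcna6 (Kv1.6) read 6.43, 6.04 and 6.26 in D3, 5.85, 6.26 and 6.31 in siSCR, 5.79, 5.70 and 5.85 in siPRMT1 and 5.57, 5.71 and 5.68 in siPRMT8. It passed in siPRMT8 (-0.48, SE 0.122, adjusted p = 0.0154) and not in siPRMT1 (-0.36, adjusted p = 0.0626).

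Without siSCR replicate 2 or 3 the Kcna calls ended in both knockdowns: the adjusted p values were 0.0563 and 0.0577 for Kcna4 and 0.1 and 0.0852 for Kcna2 in siPRMT1, and 0.0771 and 0.0801, 0.0952 and 0.0815, and 0.0637 and 0.0695 for Kcna4, Kcna2 and Kcna6 in siPRMT8. Kcna2 also lost its calls without siPRMT1 replicate 1 (0.0692), siPRMT8 replicate 1 (0.0748) or siPRMT8 replicate 3 (0.0705), Kcna4 without siPRMT8 replicate 3 (0.072) and Kcna6 without siPRMT8 replicate 1 (0.0579). Without siSCR replicate 1 the Kcna4 changes were -1.24 and -1.11. Kcna1 (Kv1.1) changed by -0.06 and -0.28 and Kcna3 (Kv1.3) by 0.03 in each knockdown, and neither was called.

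Kcnb2 (Kv2.2), a somatic delayed rectifier, read 6.54, 6.50 and 6.52 in D3, 5.97, 6.66 and 6.46 in siSCR, 5.74, 6.03 and 5.80 in siPRMT1 and 5.76, 5.92 and 5.93 in siPRMT8. siSCR replicate 1 fell inside the siPRMT1 range. The changes were -0.50 (SE 0.143, adjusted p = 0.0303) and -0.49 (SE 0.143, adjusted p = 0.0279), and every array except siSCR replicate 1 and siPRMT1 replicate 2 ended one of these calls when left out (adjusted p = 0.0517 to 0.123). Without siSCR replicate 1 they were -0.70 and -0.69. Kcnc1 (Kv3.1), a channel of fast-spiking neurons, read 6.66, 6.27 and 6.35 in D3, 5.92, 6.30 and 6.35 in siSCR, 5.92, 5.92 and 5.81 in siPRMT1 and 5.81, 5.80 and 5.91 in siPRMT8. Its siSCR replicate 1 stood level with the highest siPRMT1 arrays, and the other control arrays lay above all knockdown arrays. Kcnc1 changed by -0.31 (SE 0.120, adjusted p = 0.0959) and -0.35 (SE 0.120, adjusted p = 0.0528) and was not called, and Kcnc4 (Kv3.4) changed by 0.02 and -0.10. Kcnc2 (Kv3.2) lay below the filter and was not tested: it read 5.45, 5.29 and 5.52 in D3, 4.82, 6.01 and 5.82 in siSCR and 4.91 to 5.10 over the 6 knockdown arrays. Over the Kcna, Kcnb, Kcnc and Kcnd genes together, 5 of 13 tested fell in siPRMT1 and 7 of 13 in siPRMT8, and none rose.

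The silent subunits (Kcnf, Kcng, Kcns and Kcnv) form no channel alone and modify Kv2 channels. Of 10 such genes 6 were tested, and 1 was called. Kcng3 (Kv6.3) read 6.42, 6.31 and 6.33 in D3, 6.61, 6.40 and 6.44 in siSCR, 6.79, 6.81 and 6.83 in siPRMT1 and 7.01, 6.57 and 6.98 in siPRMT8. It rose by 0.33 (SE 0.104, 1.26-fold, adjusted p = 0.0472) and 0.37 (SE 0.104, 1.29-fold, adjusted p = 0.0244), with siPRMT8 replicate 2 inside the siSCR range. The siPRMT1 call of Kcng3 ended without any one array other than siSCR replicate 1 (adjusted p = 0.066 to 0.159), and the siPRMT8 call ended without siSCR replicate 2 or 3 or siPRMT8 replicate 1 or 3 (adjusted p = 0.0823 to 0.103). Neither of the 2 tested beta subunit genes, Kcnab2 and Kcnab3, was called. Kcnab2 read 6.63, 6.38 and 6.44 in D3, 6.25, 6.44 and 6.38 in siSCR, 5.92, 6.26 and 6.23 in siPRMT1 and 6.24, 6.08 and 6.16 in siPRMT8, with changes of -0.22 and -0.20 (adjusted p = 0.145 and 0.17). Kcnab3 read 6.23, 6.16 and 6.23 in D3, 6.05, 6.20 and 6.27 in siSCR, 6.23, 5.79 and 6.03 in siPRMT1 and 5.90, 5.86 and 6.06 in siPRMT8, with changes of -0.16 and -0.23 (adjusted p = 0.315 and 0.128). For both genes the siPRMT1 arrays overlapped the siSCR arrays. Of the 2 tested Kcne genes, whose small single-span proteins tune Kv pores, Kcne3 read 5.67, 5.46 and 4.90 in siSCR, 4.99, 5.95 and 5.12 in siPRMT1 and 6.002, 5.63 and 6.13 in siPRMT8. Its change of 0.58 in siPRMT8 had an SE of 0.243 and an adjusted p of 0.107. Kcne1l read 6.30, 6.19 and 6.24 in siSCR, 6.10, 6.32 and 6.10 in siPRMT1 and 6.10, 6.17 and 6.09 in siPRMT8, and changed by -0.07 and -0.12 without a call.

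Of the 7 tested ether-a-go-go genes (Kcnh), 2 fell in each knockdown. Kcnh7 (Erg3), a neuronal channel that closes slowly and damps firing, read 6.22, 6.30 and 6.34 in D3, 5.74, 6.61 and 6.46 in siSCR, 5.22, 5.18 and 5.14 in siPRMT1 and 5.23, 5.43 and 5.41 in siPRMT8. Both knockdowns were clear of all controls, at -1.09 (SE 0.170, 2.12-fold lower, adjusted p = 0.0022) and -0.91 (SE 0.170, 1.88-fold lower, adjusted p = 0.00386). The Kcnh7 calls held in all 16 alternatives that tested it. With the lowest 40% of genes left out, Kcnh7 was not tested. Its means in siPRMT1 and siPRMT8 were 5.18 and 5.36, below the filter value of 5.43. The gene thus passed the filter through its control arrays. Without a background measure it is not known whether these knockdown values stand above background. Kcnh1 (Eag1) read 6.49, 6.49 and 6.78 in D3, 5.95, 6.88 and 6.86 in siSCR, 5.90, 5.87 and 5.90 in siPRMT1 and 5.80, 6.09 and 5.79 in siPRMT8. It changed by -0.67 in each (SE 0.203, adjusted p = 0.0397 and 0.0336), with siSCR replicate 1 inside the siPRMT8 range. Leaving out any siPRMT1 array or siSCR replicate 2 or 3 ended the first call (adjusted p = 0.063 to 0.16), and leaving out siPRMT8 replicate 1 or 3 or siSCR replicate 2 or 3 ended the second (adjusted p = 0.0998 to 0.134). Kcnh5 (Eag2) read 6.15, 7.05 and 6.85 in siSCR, 5.78, 6.41 and 6.15 in siPRMT1 and 6.30, 6.28 and 6.39 in siPRMT8, and its changes of -0.57 and -0.37 (SE 0.215) had adjusted p values of 0.0872 and 0.245. Kcnh2 (Erg1), the channel of cardiac repolarisation, changed by -0.13 and -0.16, Kcnh3 by 0.04 and -0.01, Kcnh4 by -0.15 and -0.14 and Kcnh8 by 0.04 and 0.33 (adjusted p = 0.0532 in siPRMT8), and none of these was called.

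Of 3 tested Kcnq genes, 1 fell. Kcnq3 encodes a subunit of the M-current, the slow current that muscarinic receptors suppress. It read 6.81, 6.84 and 7.01 in D3, 6.28, 6.87 and 6.81 in siSCR, 5.90, 6.14 and 6.01 in siPRMT1 and 6.08, 6.18 and 5.94 in siPRMT8. All knockdown arrays lay below all control arrays, and the changes were -0.64 (SE 0.137, 1.55-fold lower, adjusted p = 0.00921) and -0.59 (SE 0.137, 1.5-fold lower, adjusted p = 0.0108). In siPRMT8 the Kcnq3 call ended without siSCR replicate 3 (adjusted p = 0.0516) or siPRMT8 replicate 3 (0.0519). Kcnq5, another neuronal M-channel subunit, changed by 0.10 and 0.11 (SE 0.103) and Kcnq1, the cardiac and epithelial member, by 0.16 and 0.09 (SE 0.093), and neither passed.

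Of the 4 tested Kcnm genes (BK and its relatives), 2 fell in each knockdown: Kcnma1 and Kcnmb4 in siPRMT1, and Kcnma1 and Kcnu1 in siPRMT8. Of 4 Kcnn genes, 2 fell in each knockdown. Kcnma1 encodes the pore of the large-conductance BK channel, which couples calcium entry to repolarisation. It read 7.21, 7.12 and 7.27 in D3, 6.65, 7.62 and 7.49 in siSCR, 5.89, 5.95 and 6.18 in siPRMT1 and 6.04, 6.26 and 6.23 in siPRMT8. The Kcnma1 groups did not overlap, the changes were -1.25 (SE 0.197, 2.38-fold lower, adjusted p = 0.00227) and -1.08 (SE 0.197, 2.12-fold lower, adjusted p = 0.0034), and both calls held in all 16 alternatives that tested it. A second Kcnma1 probe set with a mean of 3.67, below the filter, changed by 0.06 and -0.01. With the mean of both probe sets Kcnma1 lay below the filter, so that alternative did not test it. Kcnmb4, the neuronal beta subunit of BK, read 6.77, 6.65 and 6.32 in D3, 6.40, 6.81 and 6.63 in siSCR, 5.77, 6.28 and 5.95 in siPRMT1 and 6.21, 6.21 and 6.24 in siPRMT8. It fell by 0.61 in siPRMT1 (SE 0.144, adjusted p = 0.0135) and its change of -0.40 in siPRMT8 had an adjusted p of 0.0651. Without siSCR replicate 2 or 3 the siPRMT1 call of Kcnmb4 ended (adjusted p = 0.0624 and 0.0515). Kcnu1 (Slo3), known as the sperm relative of BK, read 5.84, 6.05 and 6.02 in siSCR, 5.99, 5.41 and 5.90 in siPRMT1 and 5.46, 5.54 and 5.70 in siPRMT8, and passed in siPRMT8 (-0.40, SE 0.129, adjusted p = 0.0416). That call ended without any one siSCR or siPRMT8 array other than siSCR replicate 1 (adjusted p = 0.0597 to 0.132).

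Kcnn2 (SK2) and Kcnn3 (SK3) are small-conductance channels that contribute to the medium afterhyperpolarisation following an action potential. Kcnn3 read 7.47, 7.43 and 7.26 in D3, 7.14, 7.38 and 7.47 in siSCR, 6.71, 6.76 and 6.92 in siPRMT1 and 6.73, 7.02 and 6.98 in siPRMT8. Its 6 knockdown arrays were below its 6 control arrays, with changes of -0.53 (SE 0.105, adjusted p = 0.00608) and -0.42 (SE 0.105, adjusted p = 0.0151). Kcnn2 read 6.86, 6.67 and 6.78 in D3, 6.45, 6.92 and 6.79 in siSCR, 6.22, 5.61 and 6.27 in siPRMT1 and 6.01, 6.24 and 6.17 in siPRMT8, and changed by -0.68 (SE 0.165, adjusted p = 0.0151) and -0.58 (SE 0.165, adjusted p = 0.0258). Leaving out siSCR replicate 2 or 3 ended the Kcnn2 calls (adjusted p = 0.0692 and 0.0614 in siPRMT1, 0.101 and 0.0861 in siPRMT8) and the Kcnn3 call in siPRMT8 (0.0563 and 0.0676). Without siPRMT8 replicate 1 the siPRMT8 values were 0.0892 for Kcnn2 and 0.0612 for Kcnn3, and without siPRMT8 replicate 3 Kcnn2 had 0.0706. Kcnn1 (SK1) changed by -0.07 and -0.05, and Kcnn4, the intermediate-conductance channel of blood and epithelial cells, by 0.19 and 0.08; neither was called. Of the sodium-activated pair, Kcnt1 (Slack) read 6.01, 6.37 and 6.43 in siSCR, 5.76, 6.06 and 6.15 in siPRMT1 and 5.91, 5.83 and 5.79 in siPRMT8. It passed in siPRMT8 (-0.43, SE 0.115, adjusted p = 0.0202) and not in siPRMT1 (-0.28, adjusted p = 0.108), and the call ended without siSCR replicate 2 or 3 or siPRMT8 replicate 2 or 3 (adjusted p = 0.0525 to 0.0865). Kcnt2 (Slick) changed by 0.18 and 0.37 (SE 0.162) without a call.

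**Figure D3:**
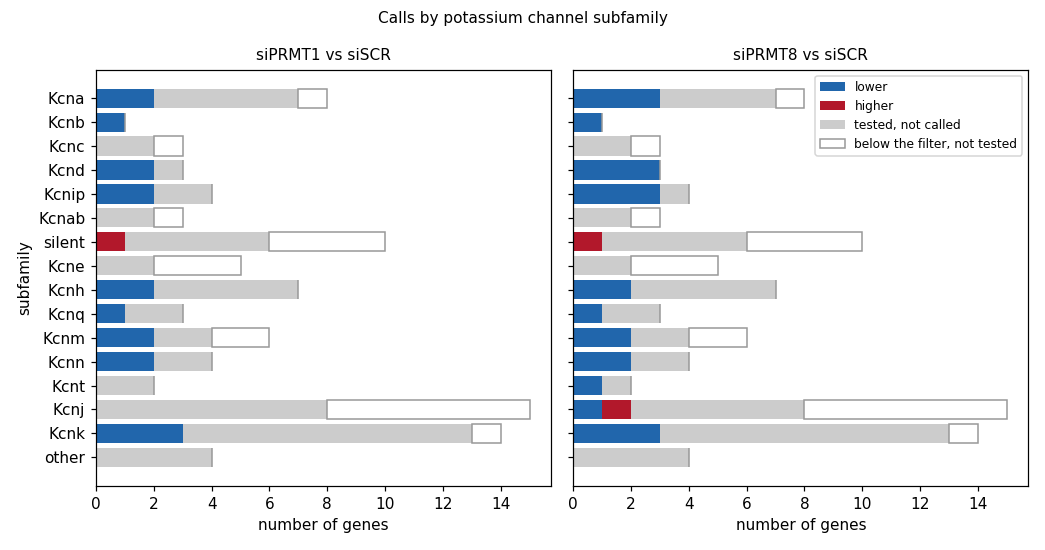
Number of potassium channel genes in each subfamily that were lower, higher, tested without a call, or below the filter, for siPRMT1 and siPRMT8 against siSCR (limma, adjusted p under 0.05). Falls are spread over the Kcna, Kcnb, Kcnd, Kcnip, Kcnh, Kcnq, Kcnm, Kcnn and Kcnk genes. The Kcnc genes hold 0 falls in each knockdown, and the Kcnt genes hold 0 in siPRMT1 and 1 in siPRMT8. The Kcnj genes hold 0 falls in siPRMT1 and 1 fall and 1 rise in siPRMT8.

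Of the 8 tested inward rectifier genes (Kcnj), none was called in siPRMT1, and 1 rose and 1 fell in siPRMT8. Kcnj3 encodes Girk1, a subunit of the channel that G-protein beta-gamma subunits open after inhibitory receptors are activated. It read 6.96, 7.26 and 6.93 in D3, 6.75, 7.16 and 7.26 in siSCR, 7.11, 7.71 and 7.40 in siPRMT1 and 8.12, 7.78 and 8.21 in siPRMT8. All 3 siPRMT8 arrays lay above the other 9 arrays, and the siPRMT1 arrays overlapped both controls. Kcnj3 rose in siPRMT8 by 0.98 (SE 0.174, 1.98-fold, adjusted p = 0.00304), in all 17 alternatives, and its change of 0.35 in siPRMT1 had an adjusted p of 0.181. Between the knockdowns it was 0.63 lower in siPRMT1 (log2 change -0.63, SE 0.174, adjusted p = 0.201), and -0.78 (adjusted p = 0.0274) without siPRMT1 replicate 2. The other Girk genes, Kcnj5, Kcnj6 and Kcnj9, lay below the filter: over the 12 arrays Kcnj6 (Girk2) read 4.64 to 4.97 and Kcnj9 (Girk3) 5.23 to 5.54.

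Kcnj10 (Kir4.1), the rectifier through which glia buffer potassium, read 6.24, 6.08 and 6.17 in D3, 6.25, 6.29 and 6.23 in siSCR, 5.88, 6.26 and 6.19 in siPRMT1 and 5.99, 5.91 and 5.78 in siPRMT8. It fell in siPRMT8 against siSCR (-0.36, SE 0.095, adjusted p = 0.0182) and did not pass against D3 (-0.27, adjusted p = 0.0563). Without siSCR replicate 2 or 3 or siPRMT8 replicate 3 the Kcnj10 call ended (adjusted p = 0.0624, 0.051 and 0.0803). Kcnj2 (Kir2.1) changed by -0.33 and -0.04, Kcnj12 (Kir2.2) by 0.31 (adjusted p = 0.0527) and 0.09, Kcnj8 (Kir6.1) by -0.17 and -0.13, and Kcnj11 (Kir6.2), the pore of ATP-sensitive channels, by 0.09 in each; none of these was called.

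Of the 13 tested leak channel genes (Kcnk), 3 fell in each knockdown. Kcnk9 (Task3), an acid-sensitive leak channel of central neurons, read 8.71, 8.74 and 8.70 in D3, 6.67, 8.78 and 8.67 in siSCR, 6.63, 6.21 and 6.57 in siPRMT1 and 6.14, 6.67 and 6.26 in siPRMT8. Thus siSCR replicate 1 lay at the top of the knockdown arrays and the other 5 control arrays lay above 8.6. The Kcnk9 changes were -1.57 (SE 0.422, 2.97-fold lower, adjusted p = 0.0242) and -1.69 (SE 0.422, 3.22-fold lower, adjusted p = 0.0151). They were -2.26 (adjusted p = 2.24e-06) and -2.37 (adjusted p = 2.32e-06) without siSCR replicate 1, and lost their calls without siSCR replicate 2 or 3 (adjusted p = 0.104 and 0.107 in siPRMT1, 0.0633 and 0.0686 in siPRMT8). The siPRMT1 call of Kcnk9 also ended without siPRMT1 replicate 2 or 3 (0.0501 and 0.0577), and the siPRMT8 call without siPRMT8 replicate 1 or 3 (0.0534 and 0.0558). Kcnk3 (Task1), its closest relative, changed by -0.03 and -0.09 (SE 0.063) and was not called.

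The mechanically and lipid-gated Trek genes gave smaller falls. Kcnk2 (Trek1) read 6.35, 6.44 and 6.39 in D3, 6.35, 6.58 and 6.60 in siSCR, 6.11, 6.24 and 6.10 in siPRMT1 and 6.22, 6.30 and 6.16 in siPRMT8. The knockdown arrays lay below the control arrays by narrow margins, with changes of -0.36 (SE 0.077, adjusted p = 0.0087) and -0.29 (SE 0.077, adjusted p = 0.0199). In siPRMT8 the Kcnk2 call ended without siSCR replicate 2 or 3 or siPRMT8 replicate 1 or 3 (adjusted p = 0.0577 to 0.083) and against D3 (-0.17, adjusted p = 0.134). Kcnk10 (Trek2) read 7.08, 7.35 and 7.20 in D3, 6.64, 7.15 and 7.05 in siSCR, 6.10, 6.74 and 6.30 in siPRMT1 and 6.57, 6.56 and 6.49 in siPRMT8. It passed in siPRMT1 (-0.57, SE 0.159, adjusted p = 0.0286), where the groups overlapped, and not in siPRMT8 (-0.40, adjusted p = 0.0869), where they did not. Its siPRMT1 call ended without siSCR replicate 2 or 3 or siPRMT1 replicate 1 or 3 (adjusted p = 0.0865 to 0.118).

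Kcnk6 (Twik2) read 7.39, 7.38 and 7.33 in D3, 7.44, 7.37 and 7.21 in siSCR, 7.58, 7.10 and 7.64 in siPRMT1 and 6.93, 7.04 and 6.95 in siPRMT8. It fell in siPRMT8 (-0.37, SE 0.120, adjusted p = 0.046), a call that ended whichever single array was left out (adjusted p = 0.058 to 0.127), and changed by 0.10 in siPRMT1. Kcnk1 (Twik1) changed by 0.00 and -0.07 and Kcnk5 (Task2) by 0.07 and 0.06. The other tested Kcnk genes, Kcnk4, Kcnk7, Kcnk12, Kcnk13, Kcnk15 and Kcnk16, were not called in either knockdown. Of the 4 remaining transcripts with a Kcn name, Kcnd3os and the 2 named for the opposite strand of Kcnmb4 (Kcnmb4os1 and Kcnmb4os2) changed by -0.15 to 0.25 without a call, and Kcnrg, a regulator that binds Kv subunits, changed by -0.23 and -0.05. Kcnmb4os1, the most changed of the 4, read 5.76, 5.83 and 5.74 in siSCR, 5.76, 6.31 and 6.01 in siPRMT1 and 6.06, 5.92 and 5.81 in siPRMT8.

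Genes whose products sit in channel complexes showed falls as well. A list of 28 such genes and of the related Hcn pacemaker channels had 25 tested members, of which 11 fell in siPRMT1 and 9 in siPRMT8, beside 11.6% and 13.2% of all genes, and 0 rose. Their median log2 change was -0.27 and -0.30. Dpp10, the transmembrane partner of Kv4 pores, read 6.61, 6.77 and 6.77 in D3, 5.65, 7.06 and 7.07 in siSCR, 5.14, 4.89 and 5.24 in siPRMT1 and 4.9995, 5.24 and 5.20 in siPRMT8. Its changes were -1.50 (SE 0.291, adjusted p = 0.00558) and -1.45 (SE 0.291, adjusted p = 0.00548). All knockdown arrays of Dpp10 lay below the filter value of 5.43, and whether they stand above background is not known. Of the Kv4 complex genes, Kcnd2, Kcnd3, Kcnip1, Kcnip4 and Dpp10 thus fell in both knockdowns, and Kcnd1, Kcnip2, Kcnip3 and Dpp6 did not. Calls of the partner genes with 1 array left out are not given here. Dpp6, the paralogue of Dpp10, changed by -0.82 (adjusted p = 0.0236) and -0.65 (adjusted p = 0.0505). Dlg2 and Dlg4, scaffolds that cluster Kv1 channels among other membrane proteins, changed by -1.64 and -1.15 in siPRMT1 (adjusted p = 0.00329 and 0.00212) and -1.62 and -1.21 in siPRMT8 (adjusted p = 0.00272 and 0.00137).

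Measured against unmodified D3, the same question gave more falls in siPRMT1 and about as many in siPRMT8. In siPRMT1, 24 channel genes fell and 3 rose, where 14.7% and 11.7% of all genes did, and 26.4% of all genes were called. In siPRMT8, 21 fell and 3 rose, where 15.2% and 12.5% of all genes did, and 27.7% of all genes were called. Kcnip1 and Kcnk9 again had the largest changes, -2.49 and -2.25 in siPRMT1 and -2.37 and -2.36 in siPRMT8. Kcnc1 passed here in both knockdowns (-0.55, adjusted p = 0.00635, and -0.59, adjusted p = 0.00414), as did Kcnab2 (-0.35, adjusted p = 0.0249, and -0.32, adjusted p = 0.0312). Kcnq1 read 5.41, 5.32 and 5.49 in D3, 5.57, 5.59 and 5.67 in siSCR, 5.68, 5.97 and 5.65 in siPRMT1 and 5.85, 5.61 and 5.64 in siPRMT8, and rose against D3 by 0.36 (SE 0.093, adjusted p = 0.014) and 0.29 (SE 0.093, adjusted p = 0.0362). Kcnh5, Kcnj2, Kcnj8 and Kcnrg fell and Kcnd3os rose in siPRMT1 against D3. These 2 comparisons share the D3 arrays.

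**Figure D4:**
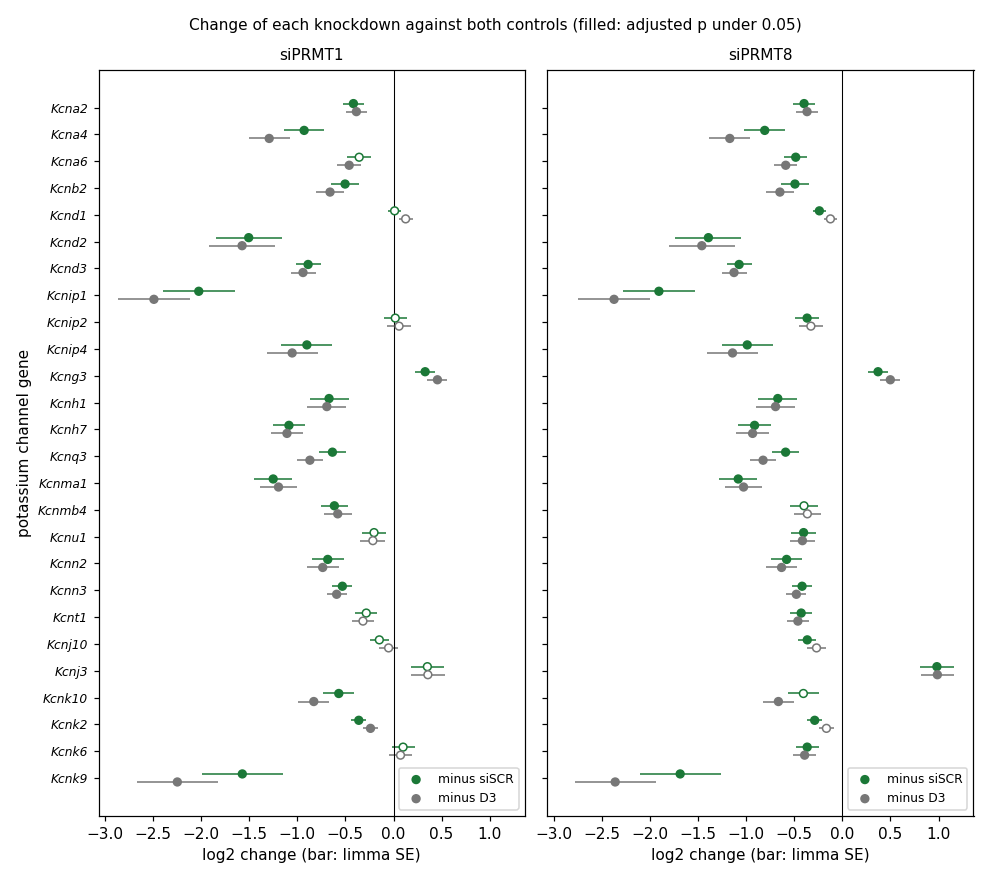
Log2 change of the 26 potassium channel genes called in either knockdown against siSCR, with 1 row per gene, drawn against siSCR (green) and against D3 (grey) with the limma SE as bars and filled points where the adjusted p was under 0.05. Points of the 2 controls lie close for most genes, and Kcnip1, Kcnk9 and Kcna4 lie further left against D3.

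The 2 controls differed in 0 of the 72 tested channel genes in limma, beside 0.154% of all genes. At an unadjusted p under 0.05 there were 4 channel genes, where 9.56% of all genes lay. The smallest adjusted p was 0.301, for Kcnj15, with 5.60, 5.50 and 5.39 in the unmodified line and 5.80, 5.66 and 5.76 in siSCR. Kcnk5 was 0.39 higher in siSCR (SE 0.168, adjusted p = 0.494) at 7.80, 7.51 and 7.42 against 7.23, 7.18 and 7.13. In 9 channel genes the D3 and siSCR arrays did not overlap, where 20.3% of all genes did not. When both siSCR replicate 1 and replicate 2 of siPRMT1 were dropped, Kcnd2 alone passed, 0.49 higher in siSCR (adjusted p = 0.0237). That was 1.39% of the channel genes, beside 1.02% of all genes.

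Between the knockdowns 0 of 72 channel genes passed in limma, again beside 0.154% of all genes. An unadjusted p under 0.05 was found for 10 of the 72, where 12.2% of all genes had one. Kcnk6 had the smallest adjusted p: it was 0.46 higher in siPRMT1 (SE 0.120, adjusted p = 0.171), followed by Kcnj3 (-0.63, adjusted p = 0.201) and Kcnd1 (0.25, SE 0.071, adjusted p = 0.211). In 8 channel genes the arrays of the knockdowns did not overlap, where 15.8% of all genes did not. Leaving out siPRMT1 replicate 2 gave 5 calls (6.94% of the channel genes, beside 5.76% of all genes), with Kcnk6 (0.63, adjusted p = 0.00454), Kcnd1 (0.32, adjusted p = 0.0195) and Kcnu1 (0.38, adjusted p = 0.0299) higher and Kcnj3 (-0.78, adjusted p = 0.0274) and Kcne3 (-0.86, adjusted p = 0.0295) lower in siPRMT1. In the fit of all 12 arrays the 10 genes called against siSCR in 1 knockdown only are therefore not shown to differ between the knockdowns.

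The 20 genes below the filter had means of 4.55 to 5.42 over the 12 arrays and included Kcnc2, 4 silent subunits, 3 Kcne genes and 7 Kcnj genes. Fitted without the filter, Kcnj5 (Girk4) was 0.40 higher in siPRMT1 than in siSCR (SE 0.114, adjusted p = 0.0412) at 5.77, 5.65 and 5.26 against 5.09, 5.22 and 5.18. Kcnmb1, the smooth muscle BK beta subunit, was lower in siPRMT8 (-0.39, SE 0.081, adjusted p = 0.00754) at 5.08, 4.91 and 5.004 against 5.37, 5.49 and 5.32. No other of the 20 passed against siSCR in this fit. Without a background measure it is not known whether such values stand above background.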

How the data were processed

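Each of 35556 probe sets had a deposited log2 value for every one of the 12 arrays. That scale was taken from the range of the values (0.97 to 13.54), and how the authors corrected background, summarised probes and normalised arrays is not given in the sources used here. Biotinylated single-stranded cDNA was hybridised, per the labels' protocols. The array medians differed by at most 0.023, so no normalisation was added, and levels were not compared between probe sets. A scan batch is not named in the labels, and the number of arrays limits the precision.

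Probe sets were named through the platform annotation (21789 with 1 symbol, 1621 with several, 12146 with none, the last 2 kinds left out). For 21698 probe sets the gene ID matched the RefSeq genes of GRCm38.p6, from which symbols were updated. The probe set with the highest mean stood for each of 999 symbols with several. Genes in the lowest 25% by mean (below 5.43) were left out, which left 14953 of 19938. One limma 3.58.1 model (R 4.3.3, lmFit and eBayes, 4 group means, 8 residual degrees of freedom) gave all tests, with Benjamini-Hochberg adjustment over all genes and 0.05 as the threshold. SE stands for the moderated standard error. The fit was tested on simulated data.

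The channel genes, subfamilies, partner genes and cell type markers were chosen with earlier results of these data known. Values in every array were to be given for the called genes of each subfamily with the largest changes (at most 3 lower and 2 higher per subfamily and comparison), or for the most changed gene of a subfamily where none was called. Array values of Kcnd1, Kcnh5, Kcnq1, Kcnk5, Kcnk6, Kcnc2, Kcnj5, Kcnj15 and Kcnmb1, and the changes of Dpp6, go beyond that rule or were chosen after their values were seen.

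The replicate numbers occur in every group. Across genes, the deviations from the group mean of arrays with the same number correlated at 0.161, 0.194 and 0.107 for siSCR and D3. This meets the threshold of 0.1 in each pair, which the other group pairs did not do. Arrays with different numbers also correlated, at 0.107 for D3 replicate 2 with siSCR replicate 3. For siPRMT1 replicate 2 with siPRMT8 replicate 1 the value was 0.531, and with siPRMT8 replicate 2 it was -0.564. Alternatives changed the control, normalisation, filter, use of probe sets, samples in the fit, variance model, block, threshold and arrays left out.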

Additional observations from a re-analysis of the deposited data

How the results depend on the processing

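For siPRMT1 against siSCR, 18 channel genes were called, 29 with the mean of siSCR and D3 as control (28.9% of all genes), 3 with only the 2 groups fitted (2.39%), and 31 when both siSCR replicate 1 and replicate 2 of siPRMT1 were dropped (34%). Leaving out 1 array at a time gave 7 to 24, where 8.81% to 25.2% of all genes were called. For siPRMT8 against siSCR, 24 were called, and 11 with a change of at least 1.5-fold also required. The share of all genes at that fold threshold is not given here. With the lowest 40% of genes left out, 15 of the 34 channel genes still tested were called (44.1%, beside 29.4% of all genes). Leaving out 1 array at a time gave 5 to 26, where 12.1% to 27.5% of all genes were called. For siSCR against D3, 0 were called, 1 with both of those arrays dropped (1.39%, beside 1.02% of all genes), and 0 with any 1 array left out. For siPRMT1 against siPRMT8, 0 were called, 9 with both dropped (12.5%, beside 12.7% of all genes), and 0 to 5 with 1 array left out (up to 6.94%, beside 5.76% of all genes). The cause of these differences in count was not tested.

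The next counts are for siPRMT1 and siPRMT8, with the shares of all genes called in brackets. D3 as control gave 27 and 24 (26.4% and 27.7%), and quantile normalisation 19 and 26 (20.8% and 25.3%). Without the filter, 18 and 22 of 92 channel genes were called (12.5% and 16%). The mean of the probe sets of a symbol gave 16 and 22 (18.8% and 24%). A trended robust variance gave 18 and 24 (19.4% and 24.6%). All of these kept both knockdown counts within 1.5 times. The fit with the replicate number as a block called 19 in siPRMT1 and 22 in siPRMT8 against siSCR (16.8% and 21.9% of all genes). It called 0 between the controls and 0 between the knockdowns, so pairing moved no count by over 1.5 times. In that fit 3 of the 42 called changes did not pass (Kcnip2, Kcnk6 and Kcnu1 in siPRMT8). Of the 42 called changes, 0 reversed and 8 passed in every alternative that tested them: Kcnd3, Kcnh7 and Kcnma1 in both knockdowns, and Kcnip1 and Kcnj3 in siPRMT8. Without siSCR replicate 2, 29 ended, without siSCR replicate 3, 30, and without siSCR replicate 1, 3. Against D3, 4 ended. No scanner files were used here, so low values could not be set against a background.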

Other observations

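Identical values recur across arrays of the deposited table: 23 of the 92 potassium channel genes had the same value in at least 2 of the 12 arrays, as had 26.03% of all named genes. Only 3 channel genes had more than 1 probe set. Kcnh8 changed in siPRMT8 against siSCR by 0.33 in the probe set used and by 0.21 in its second probe set, whereas the second probe sets of Kcna2 and Kcnma1 moved far less than the ones used.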
